A study of Mus musculus with 160 samples.

Results

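Ang4 (ENSMUSG00000060615) and Ang (ENSMUSG00000072115) are 2 of the 39179 genes counted in this mouse colon RNA-seq series. Ang4 encodes angiogenin 4, a secreted ribonuclease of the RNase A family that kills bacteria, and Ang encodes angiogenin itself and served as the family comparison. Ang4 was chosen by its difference in counts between knockout and wild-type mice of the Dock2 line, so that difference is described without a test, and so is Ang there. The values in the other lines, the difference between the sexes and the values of the other genes did not enter that choice. It was made with earlier results of these data known, so they may not be fully independent of it. Both genes were read as CPM, the count divided by the sample's total count and scaled to a common total.

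The series held 160 distal colon samples from 4 lines with a homozygous knockout of Nckap1l (HEM1 in the labels), Dock2, Gpsm3 or Dok3, each with wild-type samples of the same line. The Nckap1l line had 16 knockout samples (12 male, 4 female) and 15 wild-type samples (7 male, 8 female) taken on day 12. The Dock2 line had 18 knockout (10 male, 8 female) and 24 wild-type samples (12 of each sex), the Gpsm3 line 20 and 20, all male, and the Dok3 line 26 and 21, all labelled male, all taken on day 10. Dextran sulfate sodium (DSS), which injures the colon epithelium, was given in the drinking water at 3% in the Dock2 and Gpsm3 lines and 3.5% in the Dok3 line for 5 days, followed by water for 5 days, or 7 in the Nckap1l line, whose dose the labels do not give. The study's methods name a lower dose for the Nckap1l line and a first round at 3% for the Dok3 mice, so its samples may not share a single dose. The strain label is 129 for the Dok3 line and C57BL6/J for the others. The study's methods also give a 129 strain for the Dok3 knockout mice, although they say that all lines were re-derived with C57BL6/J females. The young adult mice came from heterozygous crosses and were housed with the genotypes mixed, and the samples are whole tissue. No label says which mice drank DSS and which water, so every group may mix both. Less Ang4 RNA per cell and fewer cells that express it cannot be told apart in whole tissue.

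Library totals lay between 4344988 and 19993833 counts (median 15989625). The knocked-out gene itself was lower in the knockout samples by log2 differences of -1.09 (Nckap1l), -0.62 (Dock2), -2.06 (Gpsm3) and -0.48 (Dok3), with edgeR adjusted p of 1.00, 0.210, 0.000101 and 1.00, and its lowest wild-type value lay below its highest knockout value in every line. 5 Dok3 samples labelled male (knockout 1 to 3, wild type 1 and 2) carried Xist and almost no Y-linked RNA. Transcripts of skin keratinocytes summed to between 3.94 and 14140 CPM per sample.

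Angiogenins are small basic ribonucleases that epithelial cells release into the lumen. In the mouse intestine Ang4 is known from Paneth cells of the small intestine and from goblet cells of the colon, where type 2 cytokines and the microbiota raise it, and its protein damages bacterial membranes. Ang is made in many tissues, and the cytosolic ribonuclease inhibitor Rnh1 binds enzymes of the family.

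The genes lie 0.68 Mb apart on chromosome 14 (GRCm38, the build called mm10 in the labels). Ang4 spans 51763878 to 51773590 on the minus strand, in 2 exons of 79 and 630 bases, and its whole coding sequence is in exon 2 (51764058 to 51764489). Ang spans 51091150 to 51102009 on the plus strand with its coding sequence also in exon 2 (51101404 to 51101838). The coding sequences, of which the first 300 bases follow (51764190 to 51764489 for Ang4 and 51101404 to 51101703 for Ang), are shown because they decide how well reads of the genes can be told apart. Capitals mark the bases at which the other gene has a different base or none in a global alignment.
Ang4: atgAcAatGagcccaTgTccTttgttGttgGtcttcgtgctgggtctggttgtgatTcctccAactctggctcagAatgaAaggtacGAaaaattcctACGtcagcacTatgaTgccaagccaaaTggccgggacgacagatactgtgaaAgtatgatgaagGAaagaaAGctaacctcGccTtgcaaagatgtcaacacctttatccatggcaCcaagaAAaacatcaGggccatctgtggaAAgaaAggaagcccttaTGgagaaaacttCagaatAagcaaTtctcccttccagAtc
Ang: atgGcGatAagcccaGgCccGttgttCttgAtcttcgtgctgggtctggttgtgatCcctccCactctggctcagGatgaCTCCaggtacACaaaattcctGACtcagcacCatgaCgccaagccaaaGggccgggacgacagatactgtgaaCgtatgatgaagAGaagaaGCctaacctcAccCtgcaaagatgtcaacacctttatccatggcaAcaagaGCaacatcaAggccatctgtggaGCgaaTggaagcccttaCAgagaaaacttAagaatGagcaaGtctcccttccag
Over the whole coding sequences, 369 of 432 aligned bases were identical (85.4%). Of the 610 windows of 100 bases, the read length, in the Ang4 transcript, none occurred exactly in a transcript of another gene. The closest window had 8 mismatches to Ang, 3 to Ang5, 6 to Ang2 and 6 to Ang6. Ang5 and Ang6 were nearly unread here (0 of 160 samples with 3 or more counts for each). Ang shares 219 of its 1202 exon bases (18.2%) with Rnase4 on the same strand, so reads there cannot be assigned to a single gene, and its counts may miss them.

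The bases before the starts that were compared also differed. In the 250 bases before the RefSeq start of Ang4 (GRCm38.p6, chr14:51773591-51773840, minus strand) the capitals mark TATATA and TTCNNNGAA, the latter a motif of STAT factors, each found once.
Ang4: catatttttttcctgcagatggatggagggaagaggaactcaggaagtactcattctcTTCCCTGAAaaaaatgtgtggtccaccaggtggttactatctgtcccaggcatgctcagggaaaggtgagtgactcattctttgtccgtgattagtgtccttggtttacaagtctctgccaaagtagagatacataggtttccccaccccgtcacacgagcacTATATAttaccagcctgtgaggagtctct
Between TATATA and the start lay 23 bases, and 5.01% of 32536 such windows held it on either strand. TTCNNNGAA was in 7.04% of them. TATAAA (12.3% of windows), the form of the STAT motif with 1 more base between its arms (5.89%) and GATAAG (6.42%) were not in these bases. The 250 bases before the start shared by Ang and Rnase4 (chr14:51090827-51091076, plus strand) held none of the 5 motifs and are shown for comparison. In the gene models the first exons of Ang begin at 51091150 and 51096000. The bases before 51096000 were not searched, so the comparison leaves out that start of Ang.
Ang: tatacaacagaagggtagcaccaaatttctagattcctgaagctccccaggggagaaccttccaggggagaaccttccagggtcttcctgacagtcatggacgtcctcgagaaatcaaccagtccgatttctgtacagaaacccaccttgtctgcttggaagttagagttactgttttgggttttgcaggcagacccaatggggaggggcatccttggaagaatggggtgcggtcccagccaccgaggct

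Ang4 was among the most variable genes of this colon, whereas Ang varied less than the median gene in every line but Dok3. Ang4 ranged from 0 to 849.6 CPM over the 160 samples, with a median of 1.21 CPM, and 23 samples held fewer than 3 counts of it. Ang ranged from 1.32 to 11.3 CPM with a median of 7.37 CPM. With genotype and sex taken out, the SD of log2 CPM of Ang4 was 2.70, 1.32, 2.32 and 2.35 for Nckap1l, Dock2, Gpsm3 and Dok3, where the median gene had an SD of 0.35, 0.26, 0.32 and 0.37. Of the 17560 to 17947 genes tested, only 247, 174, 35 and 107 had a larger SD in these lines. The SD of Ang was 0.24, 0.20, 0.22 and 0.71, the last larger than that of 82.75% of genes.

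Ordered by their median, the groups ran from Dock2 knockout (8.63 CPM of Ang4) through Nckap1l knockout (4.54), Gpsm3 wild type (1.68), Gpsm3 knockout (1.45), Dock2 wild type (1.17), Dok3 knockout (0.663) and Nckap1l wild type (0.620) to Dok3 wild type (0.195). The interquartile ranges of every pair of neighbours in this order overlapped. High values were found mostly in knockout samples: 22 of 80 knockout samples held at least 10 CPM, against 2 of 80 wild-type samples, and without the Dock2 line 14 of 62 against 2 of 56. The highest sample alone, a Nckap1l knockout, held 33.1% of the summed CPM of all 160 samples.

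**Figure D1:**
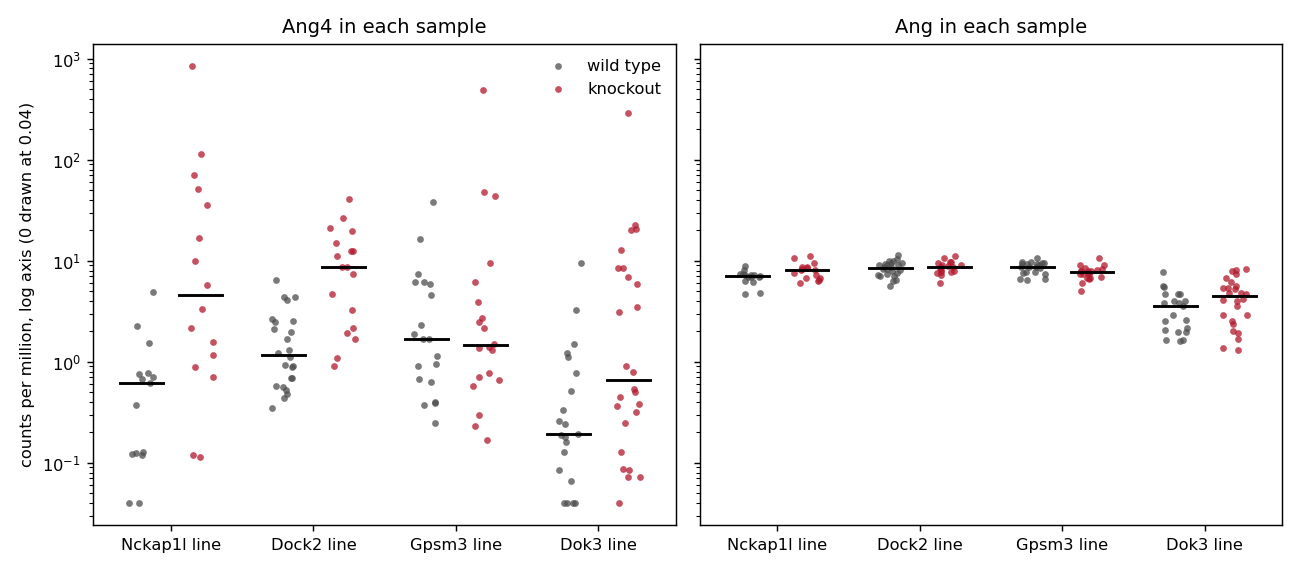
CPM of Ang4 (left) and Ang (right) in each of the 160 samples on a log axis, with 0 drawn at 0.04, by line and genotype; each point is 1 sample and the bar is the group median. Ang4 spread from 0 to 849.6 CPM while Ang stayed between 1.32 and 11.3 CPM.

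In the Dock2 line, the line on which Ang4 was chosen, it ran from 0.915 to 40.4 CPM in knockout samples (median 8.63) and from 0.350 to 6.39 CPM in wild-type samples (median 1.17). Dock2 encodes an activator of Rac that immune cells need to migrate. Of the 18 knockout samples 11 lay above the highest wild-type sample, and 9 of the 24 wild-type samples lay below the lowest knockout sample. The fitted difference of Ang4 was 2.59 on the log2 scale (SE 0.40), or 2.38 without the highest sample. In that contrast 0.034% of 17648 genes were called by edgeR, 0.00567% as higher and 0.0283% as lower in the knockout. Ang4 was chosen on both sexes together, so its values in each sex only describe the same difference. Medians for females were 6.62 CPM (8 knockout) against 0.904 CPM (12 wild type), and for males 8.63 CPM (10 knockout) against 1.82 CPM (12 wild type). The genotypes overlapped in Ang: it ran from 6.02 to 11.2 CPM in knockout samples (median 8.62) and from 5.69 to 11.3 CPM in wild-type samples (median 8.47).

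In the Nckap1l line Ang4 was also higher in knockout samples. The choice of the gene did not use this comparison, but earlier results of these data were known. Nckap1l encodes a subunit of the WAVE complex that drives actin assembly in blood cells. Ang4 ran from 0.113 to 849.6 CPM in the 16 knockout samples (median 4.54) and from 0 to 4.94 CPM in the 15 wild-type samples (median 0.620). The groups overlapped, with 8 knockout samples above the highest wild-type sample. The fitted difference was 6.12 on the log2 scale (SE 1.27) and did not pass the threshold over all 17947 genes (edgeR adjusted p = 0.317, unadjusted p = 3.7e-05). edgeR called 0 of those genes (0%), with 807 at an unadjusted p under 0.05. DESeq2 called 21, Ang4 among them (difference 4.73, adjusted p = 8.95e-05), while limma-voom, the study's own method, called 0 (708 at an unadjusted p under 0.05) and gave Ang4 a difference of 3.87 (SE 1.39, adjusted p = 1.00). Without the highest sample the edgeR difference was 4.77. The mean log2 CPM was 2.71 ± 3.37 (SD, n = 16) against -0.83 ± 1.55 (SD, n = 15), and a permutation test of that difference of 3.54 gave p = 0.0007 (two-sided, unadjusted). That test, chosen after the values were seen, was run for both genes in every line but Dock2, 6 tests on all samples. It was repeated within sex and block, without the highest sample and without samples rich in keratinocyte RNA. In the Dok3 line it was also repeated without the samples whose sex markers went against the label. None of these p-values was adjusted for the number of tests.

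RNA of skin keratinocytes split the samples of this line within each genotype. Its 10 markers summed to over 100 CPM in 7 knockout and 8 wild-type samples. Over the whole knockout and wild-type groups the sum had medians of 10.8 and 919 CPM and highest values of 8958 and 5988 CPM. All 10 markers had a fitted difference above 0 (median 0.79), opposite to the order of those medians. None was called, in a contrast in which edgeR called 0% of all genes. Among the 9 knockout and 7 wild-type samples in which the markers summed to 100 CPM or less, the difference of Ang4 was 3.73 (permutation p = 0.00839). The summed level of goblet cell genes had a median of 16180 CPM in the knockout group against 9102 CPM, and all 21 had a log2 difference above 0, beside 53.3% of all genes, but none was called. Smooth muscle markers had a summed median of 5342 CPM against 8769 CPM, and 0 of 9 had a difference above 0 (median -0.42), again with none called. The part of these tissues in the difference of Ang4 was not tested.

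In the Dok3 line, where Dok3 encodes an adaptor that dampens signalling in B cells and macrophages, Ang4 ran from 0 to 290.1 CPM in the 26 knockout samples (median 0.663) and from 0 to 9.55 CPM in the 21 wild-type samples (median 0.195). Only 5 knockout samples lay above the highest wild-type sample. The fitted difference was 4.06 (SE 0.92, edgeR adjusted p = 0.713), and 2.35 without the highest sample. edgeR called 0 of 17612 genes (0%), with 386 at an unadjusted p under 0.05, and DESeq2 called 3. The difference of mean log2 CPM was 1.83 (permutation p = 0.00942). Of the 5 samples whose sex markers went against the label, Ang4 had between 0.772 and 22.8 CPM. Without them the difference was 1.5 (permutation p = 0.0312), and Ang4 no longer passed the filter of the edgeR fit.

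The Gpsm3 line gave no such difference. Gpsm3 encodes a regulator of G protein signalling in leukocytes. Ang4 ran from 0.170 to 494.6 CPM in 20 knockout samples (median 1.45) and from 0.250 to 38.5 CPM in 20 wild-type samples (median 1.68). The fitted difference of 2.69 (SE 0.88, edgeR adjusted p = 0.936) rested on a single knockout sample, and was 0.51 without it. The difference of mean log2 CPM was 0.36 (permutation p = 0.635). In this contrast 0.00569% of 17560 genes were called.

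Ang differed between genotypes by little in these 3 lines. Its knockout and wild-type medians were 8.10 and 7.14 CPM for Nckap1l, 7.76 and 8.65 CPM for Gpsm3 and 4.46 and 3.55 CPM for Dok3, and the ranges overlapped in each. The edgeR differences were 0.25 (SE 0.097), -0.13 (SE 0.072) and 0.33 (SE 0.21), with adjusted p of 1.00, 0.936 and 1.00. The permutation test gave p = 0.0135, 0.0607 and 0.164 in the same order. Without the highest sample its p was 0.0259, 0.0247 and 0.232, for differences of 0.20, -0.16 and 0.25. Without the samples rich in keratinocyte RNA the permutation p was 0.260, 0.125 and 0.0326. The difference of mean log2 CPM in the Dok3 line was 0.30 with those samples and 0.51 without them.

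No difference of Ang4 between the sexes passed the test. The female minus male difference was -0.54 (SE 1.25, edgeR adjusted p = 0.860, with 0.178% of genes called, 0.106% higher and 0.0724% lower) in the Nckap1l line and -0.35 (SE 0.40, adjusted p = 0.628) in the Dock2 line. Ang was higher in females of the Dock2 line by 0.19 (SE 0.061, edgeR adjusted p = 0.0405), where 9.75% of 17648 genes were called, 4.26% higher and 5.5% lower in females. That call of Ang was lost with limma-voom (adjusted p = 0.0584) and in edgeR without the filter on low counts (adjusted p = 0.0704). Its medians there were 9.25 CPM in 12 wild-type females and 7.44 CPM in 12 wild-type males, and 8.98 CPM in 8 knockout females and 8.26 CPM in 10 knockout males. Retnlb, which encodes the goblet cell antimicrobial RELM-beta, differed by -1.87 (SE 0.62, edgeR adjusted p = 0.0455), lower in females of that line.

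The numbers in the sample titles fall into separate runs, called blocks here: 3 in the Nckap1l line, 2 each in the Gpsm3 and Dok3 lines. What a block stands for is not stated. In the Gpsm3 line Ang4 was lower in the second block by -3.47 (SE 0.90, edgeR adjusted p = 0.0127, with 7.93% of genes called, 3.02% higher and 4.91% lower), but limma-voom did not call it (-1.71, adjusted p = 0.163). All 5 samples of at least 10 CPM were in the first, which ran from 0.299 to 494.6 CPM (median 2.01, n = 20) against 0.170 to 7.37 CPM (median 1.14, n = 20). In the Nckap1l line Ang4 differed over the blocks by -3.84 (second minus first) and 1.88 (the last minus the first; edgeR adjusted p = 0.00859, with 38% of genes called). All samples of the second block were male, while the other blocks held both sexes. Sex was a covariate of this fit, but the medians that follow were not adjusted for it. In block order, the medians of Ang4 in knockout samples of this line were 26.2 CPM (n = 6), 0.882 CPM (n = 5) and 9.93 CPM (n = 5). Those in its wild-type samples were 0.372 CPM (n = 8), 0.4 CPM (n = 4) and 1.53 CPM (n = 3). Most goblet cell genes went the other way between the first pair of blocks: 17 of 21 were called over the blocks with a higher level in the second than in the first, as were 11 of 14 B cell genes and 11 of 19 inflammation genes. Over all 17947 genes, 3154 were called with a higher and 3663 with a lower level in the second block than in the first. Clca1, also called over the blocks, differed by -0.02 (second minus first) and 1.61 (the last minus the first). Markers of other tissue went with Ang4: 9 of 9 smooth muscle, 9 of 9 tested striated muscle and 8 of 10 skin keratinocyte markers were called with a lower level in the second block than in the first. Their part in the result was not tested. In the Dok3 line the difference of Ang4 was -0.63 (SE 1.08, adjusted p = 1.00), with 0.125% of genes called, 0.0227% higher and 0.102% lower. With block as a covariate the knockout difference of Ang4 was 4.96 (Nckap1l), 1.32 (Gpsm3) and 3.73 (Dok3). Ang did not pass the threshold for a difference over blocks in any of these lines.

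**Figure D2:**
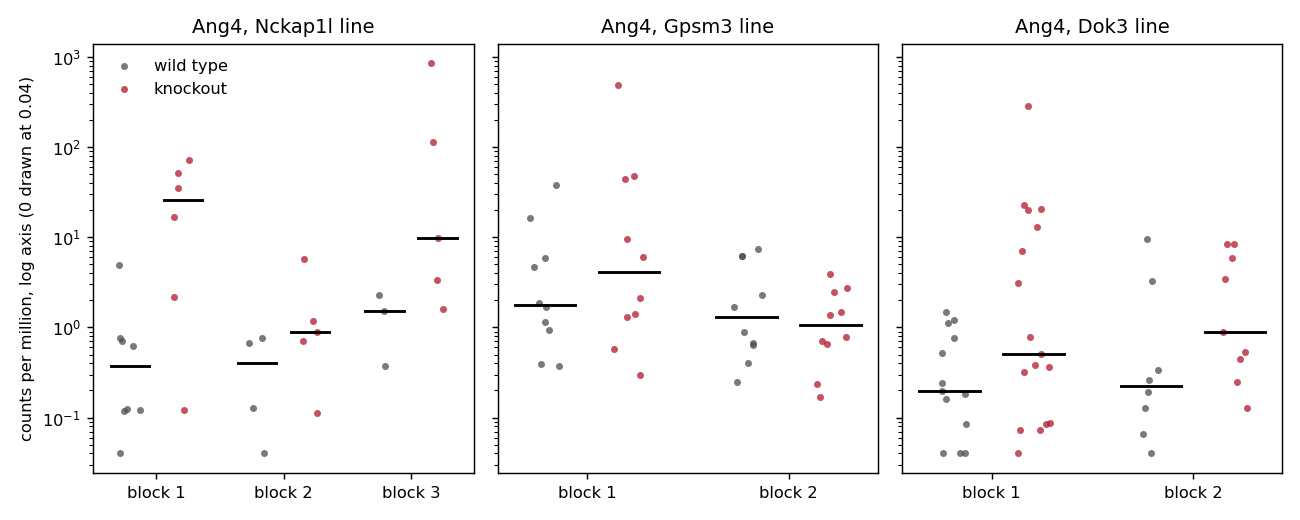
CPM of Ang4 on a log axis, with 0 drawn at 0.04, by block of sample numbers and genotype in the 3 lines with more than 1 block; points are samples and bars are medians. In the Nckap1l line the knockout samples of the first and last block reached 71.4 and 849.6 CPM and those of the second 5.72 CPM.

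Of the other genes of the family, few were read in the colon. 20 of 21 listed genes were in the files. Per kilobase of exon, the median level over all samples was 1.71 CPM for Ang4, 6.13 CPM for Ang, 39.8 CPM for Rnase4, which encodes the family member that shares its start with Ang, 0.680 CPM for Rnase6 and 1.11 CPM for Ear2, an eosinophil ribonuclease. At its highest Ang4 reached 1198 CPM per kilobase, above the highest value of any of these. Rnh1, the inhibitor, stood at 37.6 CPM per kilobase and ran from 65.8 to 188.5 CPM without that scaling. Ang2 was at 0 in 129 samples, Ang5 in 154 and Ang6 in all 160. Rnase1, the pancreatic type enzyme, passed the filter in the Nckap1l line alone and ran from 0 to 204.5 CPM. Of the family's other tested genes and Rnh1, none was called between genotypes by edgeR in any line. Of all genes, 0%, 0.034%, 0.00569% and 0% were called for Nckap1l, Dock2, Gpsm3 and Dok3. Rnase4 differed by 0.28, -0.00, 0.00 and 0.05 for Nckap1l, Dock2, Gpsm3 and Dok3 and Rnh1 by 0.07, -0.00, 0.14 and -0.11. Of Paneth cell transcripts, the 11 alpha-defensin genes listed had no count at all in 108 of 160 samples and together reached at most 2.32 CPM. All 15 Paneth cell markers listed summed to between 4.22 and 123.2 CPM (median 11.95). Lyz1, which encodes a lysozyme, had group medians from 6.38 to 10.2 CPM, and Pnliprp2, which encodes a lipase, reached 85.7 CPM in a Nckap1l knockout sample. The 6 pancreas markers listed summed to at most 4315 CPM in the Nckap1l knockout group (median 100.1) and 212.8 CPM in its wild-type group (median 134.4). The highest Rnase1 value was in Nckap1l knockout 16, which held 114.6 CPM of Ang4. Whether pancreas RNA was carried into these samples was not tested.

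Of the 15 genes whose levels followed Ang4 most closely, 4 were in the list of goblet cell genes, Clca1, Fcgbp, Capn9 and Muc2. Likeness was measured as Spearman's rho of log2 CPM with Ang4 within each line (n = 31, 42, 40 and 47 samples for Nckap1l, Dock2, Gpsm3 and Dok3) and averaged over the lines, among 14010 protein-coding genes. The samples of a line share treatment, blocks and tissue makeup, and rho is given as a description. The closest gene was Clca1, which encodes a protease secreted with mucus, with rho of 0.73, 0.44, 0.57 and 0.63 (mean 0.59). Fcgbp, a mucus protein, followed at 0.65, 0.50, 0.48 and 0.53. Muc2, the gel-forming mucin, had 0.40, 0.51, 0.46 and 0.52. The others of the 15 closest were E330009J07Rik (mean 0.56), Tor3a (0.53), Mlph (0.49), which carries secretory granules, Rbp4 (0.49), Uap1 (0.47), which makes the amino sugar for glycans, Capn9 (0.47), Lrrc26 (0.47), Galnt5 (0.46), which starts mucin glycans, Camk2n1 (0.45), Prkca (0.45), Hgfac (0.45) and Mcf2l (0.44). The least alike were Nup214, Vav2 and Odf2 (-0.41 each) and Elp2 and Prkd1 (-0.40 each). The median gene stood at -0.018.

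**Figure D3:**
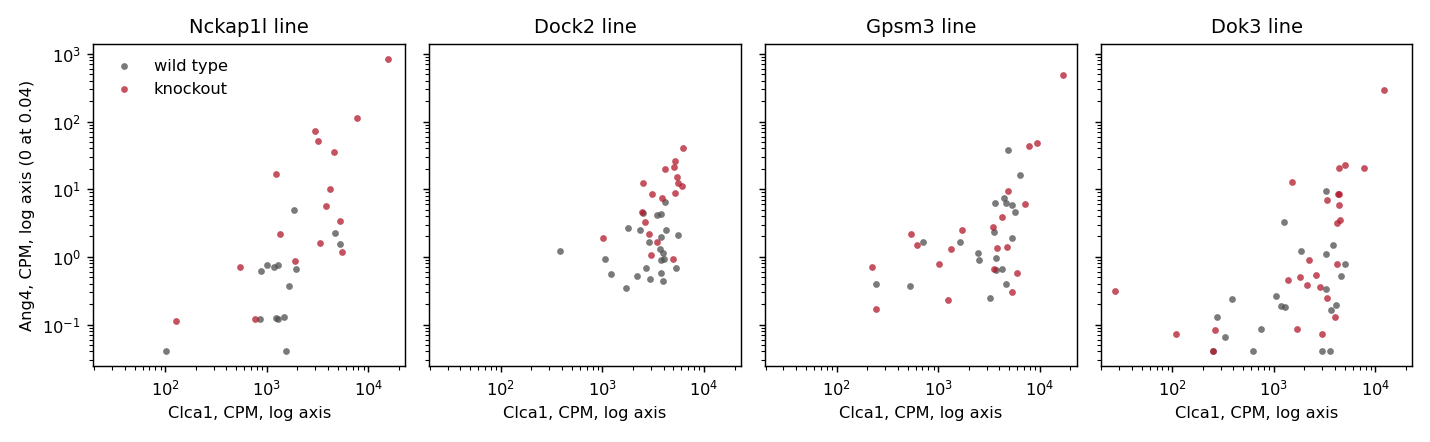
CPM of Ang4 against Clca1, both on log axes with Ang4 of 0 drawn at 0.04, in each sample of the 4 lines; each point is a sample, coloured by genotype. The sample with the most Ang4 in the Nckap1l, Gpsm3 and Dok3 lines was also the sample with the most Clca1, at 15550, 16770 and 12220 CPM.

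The 3 samples with the most Ang4 were also the highest of their line in Clca1 and Fcgbp. In the Nckap1l knockout male with 849.6 CPM, Clca1 stood at 15550 CPM and Fcgbp at 13190 CPM. In the Gpsm3 knockout with 494.6 CPM they stood at 16770 and 15840 CPM, and in the Dok3 knockout with 290.1 CPM at 12220 and 14950 CPM. Ang in those samples was 7.22, 8.41 and 6.79 CPM, within the range of the other samples. In the next Nckap1l knockout, with 114.6 CPM of Ang4, both genes were 2nd of 31 samples. In those with 71.4 and 51.2 CPM of Ang4, Clca1 stood at 3008 and 3201 CPM, the 12th and 11th highest of 31. The relation was also seen within blocks: rho of Clca1 with Ang4 was 0.70, 0.80 and 0.76 within the Nckap1l blocks, 0.61 and 0.57 within the Gpsm3 blocks and 0.61 and 0.69 within the Dok3 blocks. In wild-type samples alone rho of Clca1 was 0.56, 0.18, 0.61 and 0.44 for Nckap1l, Dock2, Gpsm3 and Dok3. The Spearman correlation of Muc2 with Ang4 was 0.05, 0.75 and 0.57 within the Nckap1l blocks, and 0.23, 0.40, 0.40 and 0.13 in the wild-type samples of the 4 lines.

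Of the 21 goblet cell genes listed all were tested, and 21, 20, 18 and 21 had a positive rho with Ang4 in the 4 lines, taken in the same order. Their median rho was 0.32, 0.44, 0.31 and 0.38, where the median of all 17065 genes was within 0.01 of 0. Clca1, Fcgbp, Capn9 and Muc2 were highest, and Creb3l1 and Galnt12, a secretory factor and a mucin glycosyltransferase, lowest (0.21 each). In the knockout contrasts 21, 20, 9 and 20 of them had a difference above 0, where 53.3%, 48.2%, 51.4% and 49.97% of all genes did. None of them was called, but edgeR called only 0%, 0.034%, 0.00569% and 0% of all genes there. Secreted antimicrobial proteins (15 of 23 tested) had a median of the mean rho of 0.12. Retnlb (0.43), the bacteria-binding lectin Zg16 (0.39), Reg4 (0.36) and Lypd8 (0.33), which binds flagella, were highest, and the neutrophil protein S100a9 (-0.17) and the protease inhibitor Slpi (-0.19) lowest. Deep crypt secretory and stem cell genes (11 of 12 tested) had a median of 0.03.

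In the Dock2 line the genes alike were partly others. Retnlb had a rho of 0.71 there (0.30 for Nckap1l, 0.38 for Gpsm3 and 0.35 for Dok3), Il13ra1, a receptor chain for IL-13, 0.66 and Mcpt1, a mucosal mast cell protease, 0.72. Of the 4 tested genes of eosinophils and mast cells, Siglecf had 0.56, Ccr3 0.49, Cma1 0.02 and Ear2 -0.07. In the Nckap1l line Mcpt1 had a rho of -0.25, and those 4 genes had -0.18, -0.33, -0.29 and 0.22. Over the whole list of type 2 cytokine genes (15 of 21 tested) the median was 0.12 in the Dock2 line and -0.01 for the mean over the lines. All 20 genes for sensing bacteria and all 15 inflammation genes tested had a positive rho in the Dock2 line, and 0 of those 15 did in the Nckap1l and Dok3 lines.

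B cell genes ran against Ang4 in some lines and not in others. Their median rho over 14 genes was -0.56 for Nckap1l, -0.31 for Dock2, -0.18 for Gpsm3 and 0.15 for Dok3. With genotype, sex and block taken out the median of the mean over the lines moved from -0.23 to -0.09, while that of goblet cell genes moved from 0.37 to 0.30. In the Nckap1l knockout samples B cell genes summed to a median of 27.9 CPM against 118.5 CPM in wild type, and in the Dock2 line to 94.0 against 167.6 CPM. What part of that the rho reflects was not tested. Absorptive colonocyte genes had a median of the mean rho of 0.23 (19 of 20 tested), genes of the IL-17 and IL-22 pathway 0.15 (11 of 20), skin keratinocyte markers -0.21 (3 of 10) and smooth muscle markers -0.06 (9 of 9).

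**Figure D4:**
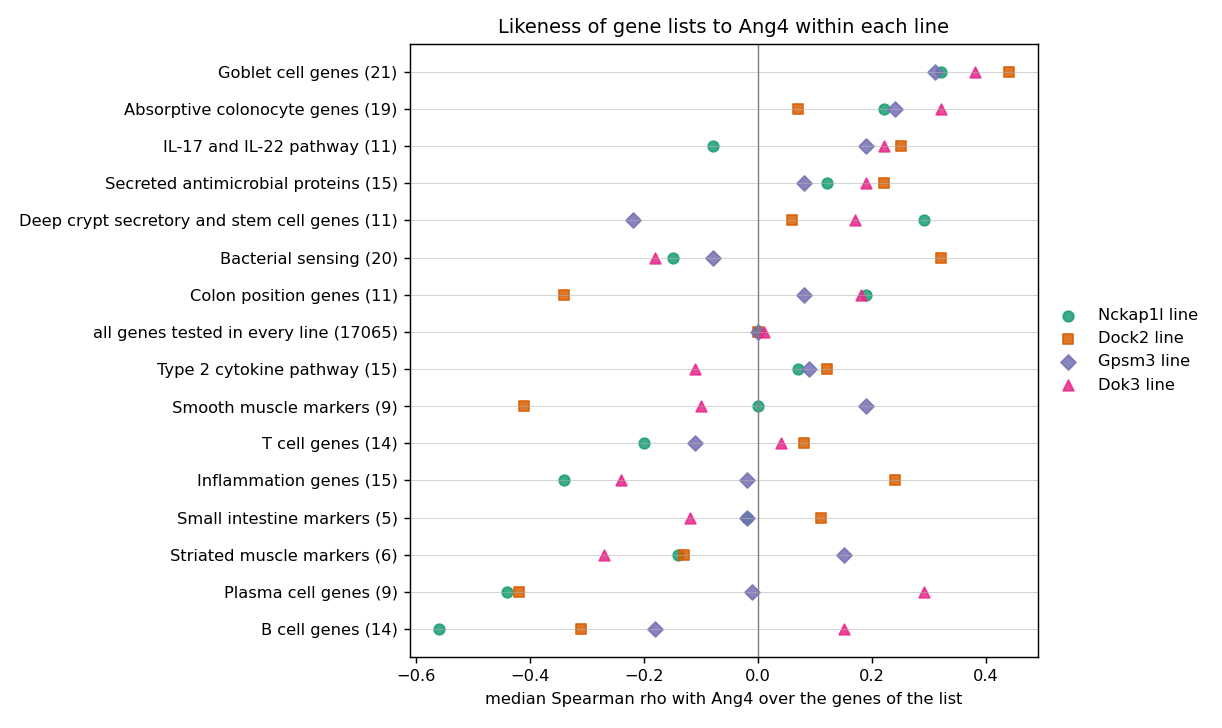
Median Spearman rho with Ang4 over the genes of each list, with the number tested in brackets, in the 4 lines; lists with at least 5 tested genes are shown, ordered by the median of the mean over lines. Goblet cell genes stood at 0.31 to 0.44 in every line, and B cell genes at -0.56 to 0.15.

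The genes most like Ang were Galnt7 (mean rho 0.53), which extends mucin glycans, Fcgbp (0.51), Clca1 (0.51), Acvr1c (0.51) and Clstn1 (0.50). Ang4 was 209th by mean rho with Ang, and Rnase4 was 1683rd at 0.28. The rho of Ang with Ang4 was 0.59 for Nckap1l, 0.12 for Dock2, 0.41 for Gpsm3 and 0.53 for Dok3, and Ang was 37th in likeness to Ang4. In the Dock2 line it was 0.64 in 22 males and 0.06 in 20 females.

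Ang was lower in the Dok3 line than in the Nckap1l and Gpsm3 lines. Among wild-type males it ran from 1.61 to 7.82 CPM in 21 Dok3 samples (median 3.55), from 4.85 to 8.12 CPM in 7 Nckap1l samples (median 7.14) and from 6.40 to 10.6 CPM in 20 Gpsm3 samples (median 8.65). The 12 Dock2 wild-type males, which were not in this contrast, ran from 5.69 to 9.88 CPM (median 7.44). The difference was -1.16 on the log2 scale (SE 0.14, edgeR adjusted p = 3.14e-09), in a comparison in which 14.3% of 19603 genes were called, 7.82% higher and 6.51% lower in the Dok3 line, and -1.16 without the samples whose sex markers went against the label. Ang4 differed by -1.02 (SE 0.61, adjusted p = 0.267), Rnase4 by -0.14 (adjusted p = 0.320). Strain, DSS dose and line cannot be told apart here.

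Within the Dok3 line the genes most like Ang lay on its own chromosome, a pattern singled out after its values were seen. Of the 20 protein-coding genes with the largest rho in size, 10 lay on chromosome 14, which holds 3.26% of the 14009 genes, and the first 8 all did. Pnp2, a purine nucleoside phosphorylase 0.14 Mb away (50955992 to 50964749), had a rho of 0.82. Ppp1r3e had 0.75 at 3.78 Mb, Rab2b -0.72 at 1.17 Mb, Tmem260 0.70 at -2.65 Mb and Psmb5, a proteasome subunit, 0.62 at 3.52 Mb. In the Nckap1l, Dock2 and Gpsm3 lines 0, 1 and 2 of the 20 lay on chromosome 14. Pnp2 ran from 0.448 to 9.02 CPM in the 47 Dok3 samples, from 3.00 to 13.1 CPM in 31 Nckap1l samples and from 3.62 to 13.2 CPM in 40 Gpsm3 samples. For Ang4 in the Dok3 line 0 of the 20 closest genes lay on chromosome 14.

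**Figure D5:**
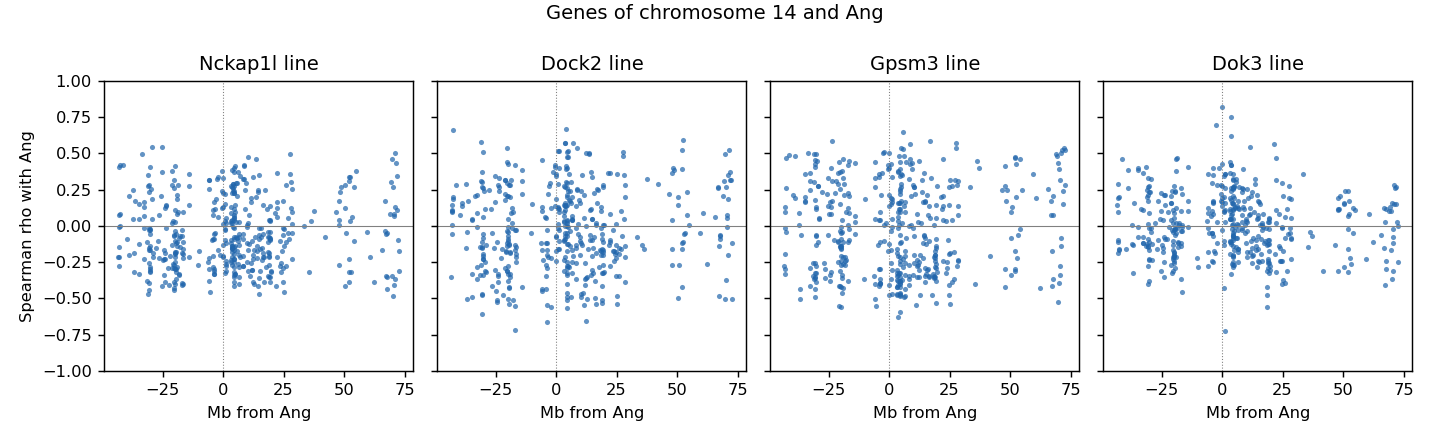
Spearman rho with Ang within each line of the protein-coding genes of chromosome 14, by distance of their starts from that of Ang in Mb; each point is a gene and the dotted line is Ang. In the Dok3 line the genes at 0.14, 2.65, 3.52 and 3.78 Mb from Ang reached rho of 0.82, 0.70, 0.62 and 0.75.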

How the data were processed

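Distal colon RNA of 160 samples had been sequenced from ribosome-depleted, stranded libraries as single reads of 100 bases. Per the labels, the deposited values were raw gene counts made by the authors with STAR and featureCounts (Subread) on mm10; the study's methods name an Ensembl build of mm10, while tool versions, its release and the strand setting are not given in the sources used here. 37693 of the 39179 gene IDs (99.67% of counts) were named from GENCODE M21. The members and gene lists were chosen with earlier results of these data known. Counts were tested per line with edgeR 4.0.16 (TMM, filterByExpr, quasi-likelihood, sex as covariate in the Nckap1l and Dock2 lines, Benjamini-Hochberg over all genes, threshold 0.05). The study's own choice, limma 3.58.1 with voom, and DESeq2 1.42.0 served as alternatives, and permutation tests drew 100000 resamples, or 10000 within sex and block. The fits were tested on simulated data. log2 CPM used a prior count of 2. Named genes were Ang4, Ang, the read family members, Rnh1, the knocked-out genes, the 15 most and 5 least like Ang4, the 5 most like Ang, and up to 4 highest and 2 lowest of each list. The labels do not say that each sample came from a separate animal, so p-values measure the spread between these samples, which may be technical. Motif matches and neighbouring genes were added later.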

Additional observations from a re-analysis of the deposited data

How the results depend on the processing

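No paired analysis was possible because the labels give no replicate number shared between genotypes. Of 189 alternatives over 33 results, 156 were rated the same as the main fit. For a difference this meant the same direction and, where an adjusted p was held, the same side of the threshold. The ratings held no adjusted p for the Dock2 knockout contrast or for fits without the highest sample. Outside the Dock2 line neither gene passed the threshold in the latter fits. A number of genes called could be rated the same though it changed, as from 6 to 9 in the Dock2 line without the sex covariate. In the Nckap1l line Ang4 passed with DESeq2 (4.73) and with every gene of at least 1 count (6.13, edgeR adjusted p = 0.039), and in permutation tests of log2 CPM (3.54), within sex and block (3.06) and without keratinocyte-rich samples (3.73). In the Dok3 line it passed in the same permutation tests (1.83, 1.83 and 2.18) and without the samples against their sex label (1.5). Ang passed in the Nckap1l line in the first pair of these (0.23 and 0.25) and in the Dok3 line without keratinocyte-rich samples (0.51). Without the highest sample the permutation test passed for Ang4 in the Nckap1l (3.07, p = 0.00124) and Dok3 lines (1.53, p = 0.0166). For Ang it then passed in the Nckap1l line (0.20, p = 0.0259) and, lower in the knockout, in the Gpsm3 line (-0.16, p = 0.0247). The permutation tests were chosen after seeing the data and their p is unadjusted. Between genotypes edgeR called 0, 6, 1 and 0 genes in the Nckap1l, Dock2, Gpsm3 and Dok3 lines, DESeq2 21, 70, 4 and 3, and the unfiltered fit 27, 31, 32 and 15; in the Dock2 line limma-voom called 0 (718 at an unadjusted p under 0.05) and males alone 1. The difference of Ang between sexes in the Dock2 line lost its call with limma-voom (0.18, adjusted p = 0.0584) and unfiltered (0.19, adjusted p = 0.0704), and that of Ang4 between Gpsm3 blocks with limma-voom (-1.71, adjusted p = 0.163). Signs turned for values that never passed: Ang4 between sexes of the Nckap1l line (0.65) and its interaction with sex (0.03) with DESeq2, and with limma-voom Ang over the Nckap1l blocks (-0.04 and -0.02) and Ang4 over the Dok3 blocks (0.13). Of the 15 genes most like Ang4, 9 remained with Pearson's r, 9 with residuals and 3 in wild-type samples alone. The causes were not tested. Low counts limit Ang4: 23 samples held fewer than 3 counts, 15 of them in the Dok3 line. Only 1 sample decides the fitted value in the Gpsm3 line.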
